A study of Mus musculus with 2 samples.

Results

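The genes described here are 10 genes known from the epithelium of the small intestine, followed in cells of the pylorus, where the stomach opens into the duodenum. They are Anpep, Dpp4, Alpi, Sis, Fabp1, Fabp2, Apoa1, Apoa4, Clca3 and Agr2. Probes were taken by the gene name given in the array files. This matched 9 of the 10 genes through 13 probes. Sis stood under a clone name and was added through its RefSeq accession, which gave 10 genes and 14 probes among the 27725 genes and 41174 probes of the array. The array's Clca3 is the gene that RefSeq now names Clca1, and the array's own Clca1 probe belongs to the gene now named Clca3a1.

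Both populations compared were sorted from a mouse strain with a knock-in allele, Lgr5-EGFP-ires-CreERT2. In this allele, green fluorescent protein (GFP) and an inducible Cre are made from the Lgr5 locus. The brightness of a cell thus follows Lgr5 and none of the genes listed above. Whether cells of the duodenum also make this GFP was not tested. GFPhigh held sorted cells of the pyloric stomach with high GFP, and GFPlow held those with low GFP. The pyloric tissue of 20 mice was pooled before sorting, and neither age nor sex was given in the sources used here. From each population 150 ng of total RNA was labelled, and both were hybridised together on 2 Agilent two-colour arrays with the dyes exchanged, so that GFPhigh carried Cy3 on array 1 but Cy5 on array 2. The arrays are therefore repeat measurements of 1 RNA sample per population. The ± values below are the SD of these 2 arrays and cover technical error only, and with 1 RNA sample on each side there is nothing to test and no p-value. Ratios are log2 of GFPhigh over GFPlow, so that a positive value is higher in GFPhigh. Precision is limited by the number of arrays.

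As background, the pylorus and the duodenum meet at a sharp border at which one epithelium replaces the other. Enterocytes of the small intestine carry a brush border of microvilli that holds peptidases, disaccharidases and alkaline phosphatase. They take up fatty acids, carry them on small binding proteins and export them on apolipoproteins in chylomicrons, and goblet cells between them secrete mucus. Pyloric glands hold mucous cells, endocrine cells and, at the base, Lgr5-expressing cells that renew the gland. Cdx1, Cdx2 and Hnf4a are among the transcription factors of the duodenal epithelium. A few of the 10 genes, Agr2 above all, are also known from mucous cells of the stomach.

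The probe sequences of Anpep, Fabp2, Clca3 and Agr2 are shown first, since each value below is the brightness of such 60-base probes. The dim probe of Fabp2 was not detected in any channel. Those of Dpp4, which was close to background, are not printed. The first 30 bases are printed in lower case with none marked, and the positions are those of the array files on mouse build mm9. The place of the probes within exons was not analysed here.
Anpep, chr7:86966725-86966784, minus strand: cctaccccccacgagatccagaaccaaaga
Fabp2, bright probe, chr3:122602276-122602335, plus strand: aggctcattcgtcatcctatcagcactggt
Fabp2, dim probe, chr3:122599692-122599751, plus strand: caatctgaaactgacaatcacacaggatgg
Clca3, chr3:144667558-144667617, minus strand: tttctaaaaatgtactttagacttcctgta
Agr2, chr12:36730506-36730565, plus strand: gtcaggagaccagaaggcagaagcactgtg

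A spot was taken as detected in a population where the scanner software marked its channel as well above background. By this rule on both arrays, 3 of the 10 genes were detected in GFPhigh (Agr2, Anpep and Fabp2), where 22.9% of all genes on the array were, and 5 of 10 in GFPlow (those 3, Clca3 and Dpp4), where 29.4% of all genes were. Clca3 and Dpp4 were detected in GFPlow and not on both arrays in GFPhigh, as were 6.93% of all genes. No gene of the 10 had the opposite pattern, for which the share of all genes was not computed. Fabp1, Alpi, Sis, Apoa1 and Apoa4 were not well above background in any of the 4 channels. A gene was compared between the populations only if its brighter side had passed that mark on each array, which left 5 of the 10.

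**Figure D1:**
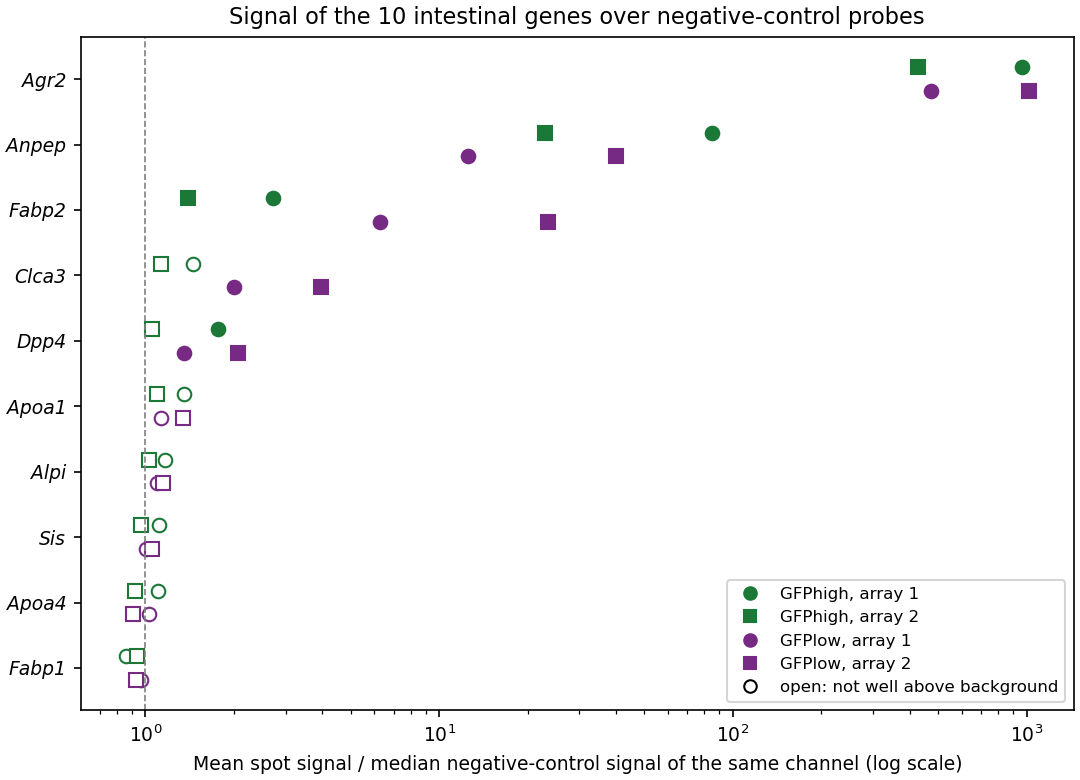
Mean spot signal of each of the 10 genes divided by the median signal of negative-control probes in the same channel (log scale), for GFPhigh (green) and GFPlow (purple) on array 1 (circles) and array 2 (squares), each gene by its brightest probe. Filled points were well above background. Agr2 reaches 1015 in its brightest channel, while Fabp1 lies below 1, marked by the dashed line, in all 4.

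Each channel had its own floor. In 153 negative-control spots the median signal on array 1 was 108 for GFPhigh and 170.5 for GFPlow, and on array 2 it was 172 for GFPhigh and 112 for GFPlow. The higher floor was that of Cy5 on both arrays. Signals of a gene are therefore best set side by side within a dye, which places GFPhigh on 1 array against GFPlow on the other, before any normalization.

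Counting asked for a normalized ratio of at least 2-fold in the same direction on each array. Of all 7829 genes measured, 1.76% were counted as higher in GFPhigh and 2.70% as higher in GFPlow. Of the 5 measured intestinal genes, 1 was counted as higher in GFPhigh, 2 as higher in GFPlow and 2 in neither. Of the 3 that were well above background in both, 1 was counted in GFPhigh and 1 in GFPlow, where 2.01% and 2.23% of such genes were. The median ratio of the 5 was -0.28, against -0.057 over all genes measured. Clca3 and Dpp4 had passed the filter through GFPlow alone, so this count and this median say nothing of the 10 genes as a set. In bulk RNA of sorted cells, fewer cells that express a gene and less of its RNA per cell cannot be told apart.

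Of the brush border enzymes, Anpep was bright in both populations and 3.74-fold higher in GFPhigh. It encodes aminopeptidase N, which removes amino acids from the ends of peptides at the cell surface and is also known from kidney and myeloid cells. On array 1 its signal was 9131 in GFPhigh and 2138 in GFPlow, and on array 2 it was 3948 in GFPhigh and 4489 in GFPlow. Within Cy3, GFPhigh with 9131 stood over GFPlow with 4489, and within Cy5, GFPhigh with 3948 stood over GFPlow with 2138. The normalized ratios were 1.80 on array 1 and 2.00 on array 2, with a mean of 1.90 ± 0.14. Only 452 of 41059 gene probes were brighter on average. The authors' deposited log ratios of the same spots, turned to log2 of GFPhigh over GFPlow, were 2.12 and 1.72.

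The mean ratio of Anpep stayed above 0 under every other way of processing tried, but its count depended on the centring of the arrays. With each array centred on its median in place of loess, its ratios were 2.11 on array 1 and 0.0026 on array 2, so that it was no longer counted. With no normalization within the arrays its ratios were 2.16 on array 1 and -0.21 on array 2, with a mean of 0.97, and it was not counted either. Under that choice the median of all genes lay at -0.57, and Anpep stood 1.55 above it.

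Dpp4, the surface peptidase that cuts pairs of residues from proline-containing peptides and inactivates incretin hormones, was close to background. Its brightest probe, at chr2:62170062-62170121, had 191 in GFPhigh and 231 in GFPlow on array 1, and 182 in GFPhigh and 230.5 in GFPlow on array 2. It was well above background in GFPlow on both arrays and in GFPhigh on array 1. Its ratios of 0.13 and -0.70 had opposite signs, and their mean of -0.28 ± 0.59 lay within their spread. The other probes of Dpp4, at chr2:62170102-62170161 and at chr2:62192636-62194702, were not well above background in any channel.

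The other brush border enzymes, Alpi and Sis, gave no readable signal. Alpi encodes intestinal alkaline phosphatase, which removes phosphate from bacterial lipopolysaccharide. Its probe at chr1:88997057-88997116 had 126 in GFPhigh and 186 in GFPlow on array 1, and 177 in GFPhigh and 129 in GFPlow on array 2. Its other probe, at chr1:88994890-88994949, lay under the 95th percentile of the negative controls in every channel. Sis encodes sucrase-isomaltase, which splits sucrose and short starch chains. At chr3:72692810-72692869 it had 119.5 in GFPhigh and 171 in GFPlow on array 1, and 167 in GFPhigh and 118 in GFPlow on array 2, all 4 under that percentile.

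Of the lipid genes, Fabp2 was 5.12-fold higher in GFPlow. It encodes the intestinal fatty acid binding protein, which carries long-chain fatty acids within enterocytes. On array 1 its bright probe had 293 in GFPhigh and 1068 in GFPlow, and on array 2 it had 241 in GFPhigh and 2621 in GFPlow. GFPhigh lay below GFPlow on both arrays and within both dyes. The ratios were -2.23 and -2.48, with a mean of -2.36 ± 0.18. The authors' deposited log ratios, turned in the same way, were -2.90 and -2.81.

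The dim probe of Fabp2 was below the mark for detection in every channel. Its signal on array 1 was 116 in GFPhigh and 210 in GFPlow, and on array 2 it was 157 in GFPhigh and 163 in GFPlow. Its ratios of -0.38 and -0.97 had the sign of the bright probe and were smaller. The call of Fabp2 thus rests on 1 probe. It was kept under every way of processing tried, with the smallest mean, -1.99, without background correction and the largest, -3.14, with the spike-in probes set to 0.

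Fabp1, the liver-type fatty acid binding protein that is abundant in duodenal enterocytes, gave the lowest average normalized signal of the 10 genes. At chr6:71154906-71154965 it had 92.5 in GFPhigh and 164 in GFPlow on array 1, and 161 in GFPhigh and 104 in GFPlow on array 2. Each of these lay below the median of the negative controls in its channel. The 2 fatty acid binding proteins of the enterocyte therefore differed in detection, Fabp2 being well above background in all 4 channels and Fabp1 in none.

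The apolipoproteins that leave the enterocyte on chylomicrons were also not detected. Apoa4, whose 60-base probe lies over 744 bases at chr9:46049661-46050404, had 119 in GFPhigh and 176 in GFPlow on array 1, and 159 in GFPhigh and 102 in GFPlow on array 2. Apoa1, at chr9:46037921-46037980, was the one gene of the 10 printed in 10 spots per array. Its median signal was 146 in GFPhigh and 192 in GFPlow on array 1, and 189 in GFPhigh and 150.1 in GFPlow on array 2. These lay above the 95th percentile of the negative controls in each channel, yet no spot was marked well above background.

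The repeated Apoa1 spots show how far single spots at this level can be read. After 1 spot was left out as non-uniform or an outlier, their ratios ran from 0.04 to 0.51 on array 1, with an SD of 0.15. On array 2 they ran from -0.52 to 0.29, with an SD of 0.25. The mean over both arrays was 0.07 ± 0.16. A ratio of Dpp4 or of the dim probes above comes from a single spot of similar brightness.

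Of the genes of secretory cells, Clca3 was 2.13-fold higher in GFPlow. It encodes a secreted protein that goblet cells release with mucus. On array 1 it had 156 in GFPhigh and 340 in GFPlow, and on array 2 it had 195 in GFPhigh and 444 in GFPlow. Only GFPlow was well above background, on both arrays. The normalized log2 levels of GFPhigh, 6.85 and 7.10, still lay above the lowest levels marked well above background there, 6.66 and 6.71. The 2.13-fold is thus the measured ratio and not a lower bound. The ratios were -1.17 and -1.02, with a mean of -1.09 ± 0.11. The offset and the model of the background pull ratios of dim spots towards 0. Clca3 was not counted without background correction, with a mean of -0.74, and missed 2-fold on array 1 with median centring (-0.995) and with no normalization (-0.95), while the authors' deposited log ratios gave -2.26 and -2.56.

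Agr2, a protein disulphide isomerase of the endoplasmic reticulum needed to fold secreted mucins, was the brightest of the 10 genes. Only 9 of the 41059 gene probes were brighter. On array 1 it had 103757 in GFPhigh and 80715 in GFPlow, and on array 2 it had 73197 in GFPhigh and 113623 in GFPlow. Within each dye GFPhigh lay slightly below GFPlow, at 103757 against 113623 in Cy3 and at 73197 against 80715 in Cy5.

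No direction could be given for Agr2. Loess placed its ratio at 0.09 on array 1 and at 2.17 on array 2, so that the mean of 1.13 ± 1.47 was smaller than its spread. Centring each array on its median gave a mean of -0.052, and no normalization gave -0.14, both below 0 though each lay 0.44 above the median of all genes under that choice. These choices differ by a constant on each array, so their like distance from the median follows by construction. The authors' deposited log ratios were 1.24 and 1.28, by which the gene would be counted as higher in GFPhigh. Few probes share its brightness, and how far loess is set by them there was not tested.

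**Figure D2:**
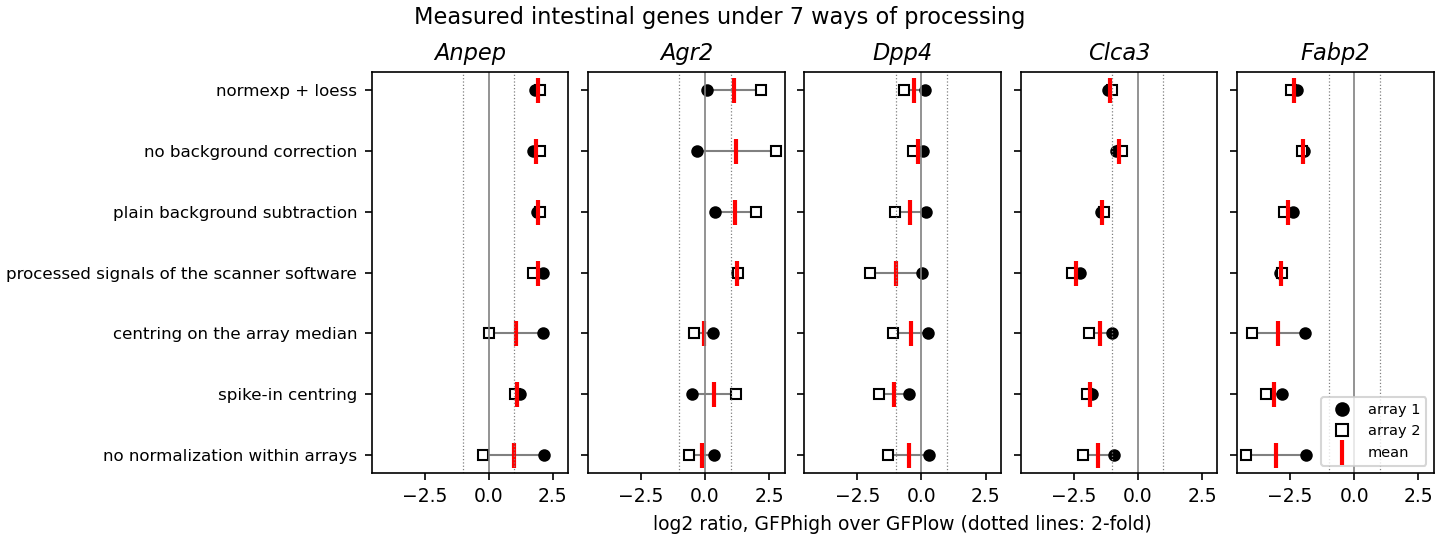
Log2 ratio of GFPhigh over GFPlow for the 5 measured intestinal genes (panels) under 7 ways of processing (rows), on array 1 (filled circles) and array 2 (open squares), with the mean as a red bar and dotted lines at 2-fold. Fabp2 lies left of the 2-fold line throughout, Anpep has a mean of 0.97 or more in each row, and the mean of Agr2 lies on both sides of 0.

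The centring moved all genes, and the changes above are best read against the median of all genes. It lay at -0.057 after loess, at -0.49 with median centring, at -0.81 with the spike-in probes set to 0 and at -0.57 with no normalization. Spike-in centring shifted the loess ratios of each array by a constant. Its values against the median therefore follow those of loess by construction and are no separate check. Against this median Fabp2 stood at -2.30 after loess, -2.47 with median centring and -2.33 with spike-in centring. Anpep stood at 1.96, 1.55 and 1.93 in the same order, and Clca3 at -1.03, -0.96 and -1.06. Dpp4 stood at -0.23, 0.07 and -0.25, so that its sign turned. The counts over all genes moved with the centring too. After loess 138 genes were counted as higher in GFPhigh and 211 as higher in GFPlow. With median centring there were 10 in GFPhigh and 215 in GFPlow and with spike-in centring 23 in GFPhigh and 1322 in GFPlow. With no normalization 5 in GFPhigh and 187 in GFPlow passed 2-fold on each array. By the mean of the arrays, in which a dye effect cancels, there were 42 in GFPhigh and 1765 in GFPlow.

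The check of the sort was Lgr5, which had ratios of 2.33 and 2.24 and was 4.86-fold higher in GFPhigh, while a second Lgr5 probe was not well above background. Across the 7829 genes measured, which share the same RNA samples and are not independent, the Pearson correlation of the 2 arrays' ratios was 0.60 and the SD of their difference was 0.57, and 4 genes passed 2-fold in opposite directions. Probes repeated within an array had a median SD of 0.17 on array 1 and 0.29 on array 2. The share of gene spots well above background ran between 18.7% and 31.7% per channel, and none was saturated.

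The genes that lay nearest to a counted gene in the pair of ratios, by Euclidean distance over the 2 arrays, were picked by a fixed rule of 3 each. For Anpep they were Slc38a5 (1.69 and 1.97), Ramp1 (1.96 and 2.14) and Selenop (1.62 and 2.15). For Fabp2 they were Anxa3 (-2.25 and -2.38), Mcm10 (-2.18 and -2.39) and Cyp2d26 (-2.15 and -2.33). For Clca3 they were Chtf18, Idi1 and Zfas1, at distances of 0.04 to 0.06. With only 2 arrays of the same RNA, such likeness is a description of these values.

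**Figure D3:**
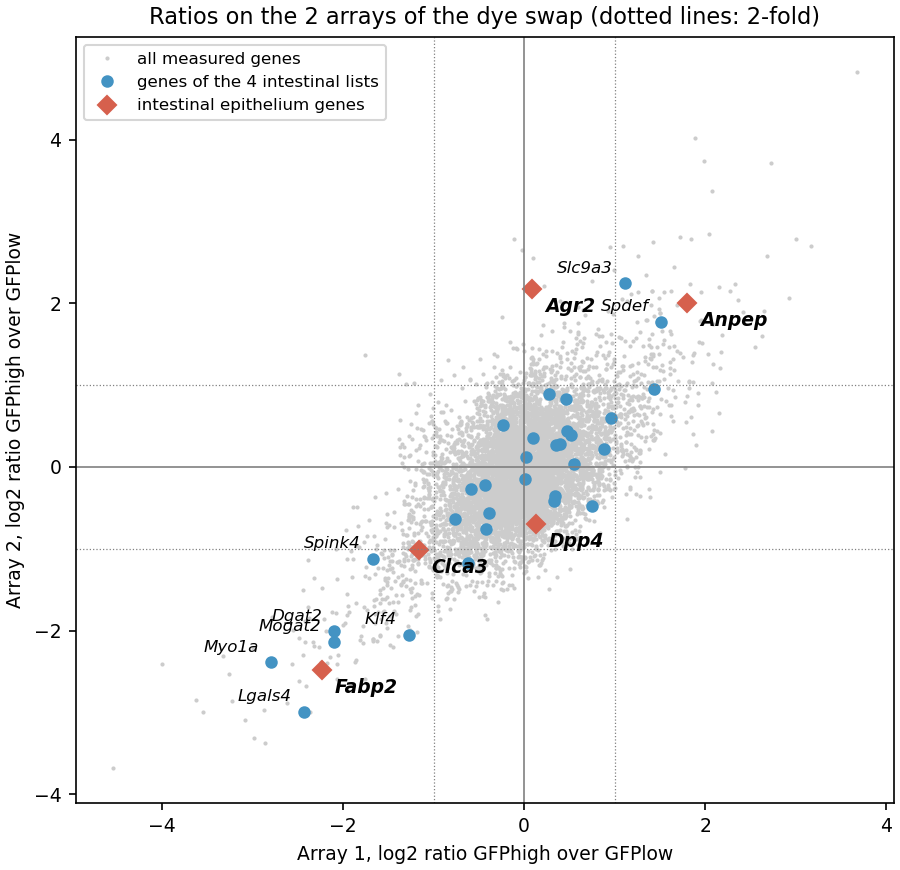
Log2 ratio of GFPhigh over GFPlow on array 1 (horizontal) and array 2 (vertical) for all 7829 genes measured (grey), the measured genes of 4 intestinal lists (blue) and the 5 measured intestinal genes (red diamonds), with dotted lines at 2-fold. Anpep lies in the upper right corner beside Spdef, Fabp2 in the lower left beside Mogat2, Dgat2, Myo1a and Lgals4, and Agr2 far from the diagonal.

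Wider lists of intestinal genes that hold none of the 10 were read in the same way. Beside their counts stand the 1.76% and 2.70% of all genes measured that were counted as higher in GFPhigh and GFPlow. Beside their detection stand the 22.9% and 29.4% of all genes. The absorptive list covers brush border structure, digestion and nutrient uptake. Of its 46 genes on the array, 6 were well above background in GFPhigh and 8 in GFPlow, and of 6 measured 1 was counted as higher in GFPhigh and 2 as higher in GFPlow. Myo1a, the myosin that ties the actin core of microvilli to the membrane, had -2.79 and -2.39. Lgals4, a galectin of the intestinal brush border, had -2.43 and -2.99. Slc9a3, the apical sodium-proton exchanger, had 1.11 and 2.25. All 4 channels were well above background for these 3 genes.

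Vil1 encodes villin, the actin bundler of microvilli, and was detected in both populations, with 0.74 and -0.48 and a mean of 0.13 ± 0.86. A second Vil1 probe gave 0.09 and -0.15. Slc2a5, the fructose transporter, had 0.39 and 0.27. The means of Vil1 and Slc2a5 turned to -0.65 and -0.45 with spike-in centring. Lct, the lactase of the brush border, and Akp3, another intestinal alkaline phosphatase, were not well above background in any channel. Of the brush border, Vil1, Myo1a and Anpep were thus readable in both populations, while Sis, Lct, Alpi and Akp3 were not readable in either.

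The lipid list gave 7 of 27 genes detected in GFPhigh and 12 of 27 in GFPlow. Of 11 measured, none was counted as higher in GFPhigh and 2 as higher in GFPlow, and the list's median was -0.33. Both counted genes act in the last steps of triglyceride synthesis. Mogat2, which joins a fatty acid to monoacylglycerol, had -2.11 and -2.14 and was well above background in GFPhigh on array 1 only. Dgat2, which makes triglyceride from diacylglycerol, had -2.10 and -2.01 and was well above background throughout.

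Acsl5, which activates fatty acids, had -0.62 and -1.18, and Plin3, a coat protein of lipid droplets, had 0.96 and 0.59. Neither passed 2-fold on both arrays, and the mean of Plin3 fell just below 0 with median or spike-in centring. Rbp2, the retinol carrier of enterocytes, had -0.39 and -0.56. The genes for chylomicron assembly gave little signal. Mttp, which loads lipid onto apolipoprotein B, was below the mark for detection in every channel. Of 5 probes of its partner Apob, 1 passed in GFPhigh on array 1. Fabp2, Mogat2 and Dgat2 thus had ratios of like size, all higher in GFPlow, while Fabp1, Apoa1, Apoa4 and Mttp were not detected. The remaining 9 measured genes of the list were counted in neither population, with means on both sides of 0. Among them Dgat1 had 0.10 and 0.35, and Plin2 had 0.47 and 0.83. Both of these means fell below 0 with median or spike-in centring.

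The goblet and Paneth cell list gave 5 of 30 genes detected in GFPhigh and 5 of 30 in GFPlow, with 1 of 5 measured genes counted in each direction. Spdef, a transcription factor of mucus-secreting cells, had 1.52 and 1.77. Spink4, a small protease inhibitor of goblet cells, had -1.67 and -1.12. Reg3g, an antibacterial lectin, was well above background in GFPhigh alone, at least 1.89-fold higher there, and not counted. Creb3l1, a membrane-bound factor of secretory cells, had 0.47 and 0.43, and its mean turned to -0.33 with spike-in centring.

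Muc2, the main mucin of intestinal goblet cells, was not detected in any channel by any of its 3 probes. Tff3, the goblet cell trefoil peptide, was well above background in GFPlow on both arrays and in GFPhigh on array 1, with 0.14 and 0.07. The relatives of Clca3 in the same gene family, Clca2, Clca3a1 and Clca4a, were not well above background in any channel. Clca3 was the one of these 4 that was detected.

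Of 23 intestinal regulators 8 were detected in GFPhigh and 10 in GFPlow, and of 9 measured 1 was counted, in GFPlow. That gene was Klf4, a zinc finger factor of differentiated epithelium, with -1.27 and -2.05. Klf5, a factor of proliferating epithelium, had -0.42 and -0.76. Maf, a factor of maturing enterocytes, had 0.27 and 0.89, and Foxa3, a forkhead factor of the endoderm, had 0.88 and 0.21, and both means turned below 0 with spike-in centring. Cdx1 and Cdx2 were not well above background in any channel. Of 3 Hnf4a probes and 2 Gata4 probes, 1 each was detected, in GFPlow on array 2 only.

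The 4 lists together held 126 genes on the array, of which 20.6% were detected in GFPhigh and 27.8% in GFPlow. These shares lie near the 22.9% and 29.4% of all genes. Of 31 measured, 2 were counted as higher in GFPhigh, 6 as higher in GFPlow and 23 in neither, with a median of 0.07. Over all genes measured 1.76% were counted in GFPhigh and 2.70% in GFPlow, with a median of -0.057. With spike-in centring the 2 genes counted in GFPhigh, Slc9a3 and Spdef, had means of 0.90 and 0.86, just under 2-fold. With median or spike-in centring none of them was counted in GFPhigh, while 5 and 11 were counted in GFPlow.

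**Figure D4:**
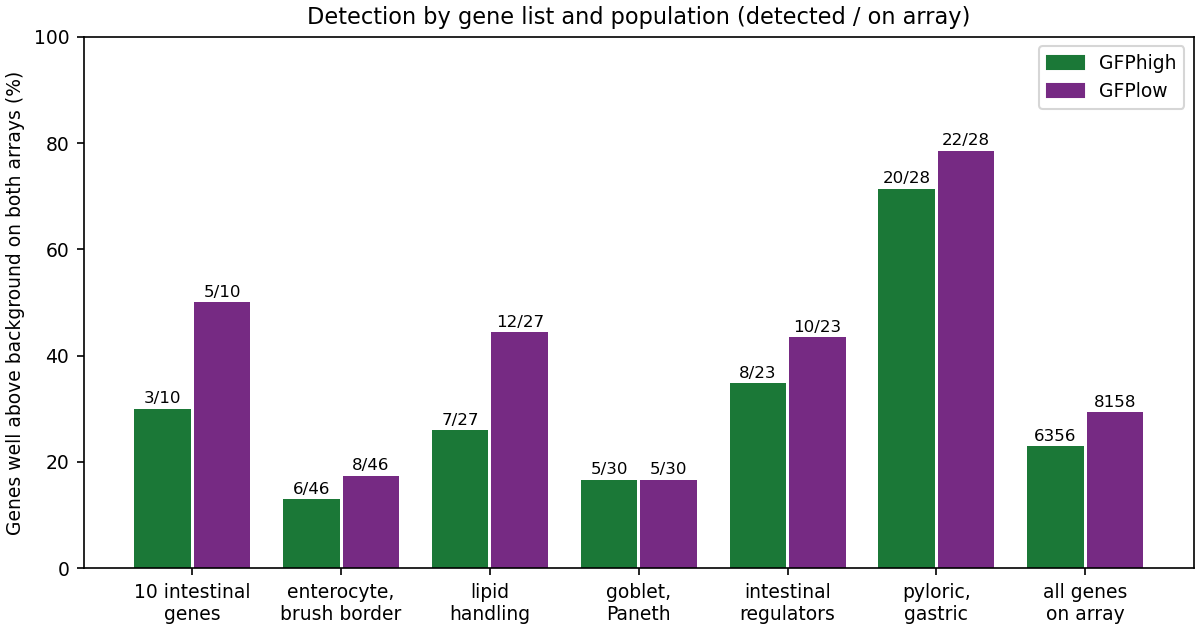
Share of genes well above background on both arrays in GFPhigh (green) and GFPlow (purple) for the 10 intestinal genes, 4 intestinal lists, the pyloric and gastric list and all genes on the array. Numbers above the bars give the genes detected, and for the lists also those on the array. The pyloric and gastric list stands at 71.4% in GFPhigh and 78.6% in GFPlow, above every other bar.

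Genes of the pylorus and the rest of the stomach were read beside them. Of 28 on the array, 20 were detected in GFPhigh and 22 in GFPlow, or 71.4% and 78.6%. Of 22 measured, 5 were counted as higher in GFPhigh and 6 as higher in GFPlow, beside 1.76% and 2.70% of all genes measured. Pgc, the zymogen of gastricsin, was at 3.22 ± 0.69, and Cblif, gastric intrinsic factor, at 4.25 ± 0.82. Muc6, the mucin of gland mucous cells, was at 1.06 ± 0.28 and passed 2-fold on array 1 alone.

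The named genes of surface mucous cells had the other sign. Gkn2, a gastrokine, was at -3.24 ± 0.55, Tff1, a trefoil peptide, at -3.20 ± 1.12, and Muc5ac, the surface mucin, at -2.33 ± 0.37, with a dim second probe at -0.61. Gkn1 was well above background in GFPlow alone and at least 3.07-fold higher there. Chia1, an acidic chitinase that is not placed here with surface or gland genes, was also higher in GFPlow, at -4.11 ± 0.61. Gkn3 and Tff2, of the gland, had 1.89 and 4.02, and 0.95 and 2.68. Fabp2, Clca3, Myo1a, Mogat2 and Dgat2 thus shared their sign with surface mucous genes, and Anpep, Slc9a3 and Spdef with gland genes. Each of these genes kept the sign of its mean under median centring, spike-in centring and no normalization. On array 2 alone, Spdef turned to -0.075 with median centring and to -0.29 with no normalization. Anpep turned to -0.21 on array 2 with no normalization. Among the gland genes, Muc6 on array 2 turned to -0.027 with median centring, -0.10 with spike-in centring and -0.24 with no normalization. Tff2 on array 2 turned to -0.20 with no normalization. Sox2, a factor of the foregut, was well above background in GFPhigh on array 1 and in GFPlow on array 2.

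Markers of cells that could have entered the sort are given beside all genes, of which 22.9% were detected in GFPhigh and 29.4% in GFPlow. With marker lists this short, the counts do not tell how many such cells were present. Of 7 epithelial markers 6 were detected in each population, and 1 of them, Krt19 at -2.24 ± 0.04, was counted as higher in GFPlow. Pancreatic acinar markers gave 1 of 10 in GFPhigh (Ctrb1) and 2 of 10 in GFPlow (Ctrb1 and Amy2a5), and liver markers 1 of 4 in GFPhigh (Ttr) and none in GFPlow. Blood and immune markers gave none of 10 in GFPhigh and 1 in GFPlow (Hbb-bt). Stromal markers gave 1 of 10 in each (Acta2), and squamous markers 1 of 8 in each (Lor). These names were chosen after their values were seen. Ctrb1, Amy2a5, Ttr, Hbb-bt, Acta2 and Lor were not counted as higher in either population. For duodenal cells the 4 intestinal lists served as markers, with 26 of 126 genes detected in GFPhigh and 35 of 126 in GFPlow. Myo1a, Lgals4 and Vil1 were detected in both, as was Fabp2. Detected on both arrays in GFPlow but not in GFPhigh were 10 of the 126, beside 6.93% of all genes. They were Mep1a, Cdhr5, Apoc2, Mogat2, Rbp2, Abcg5, Slc27a4, Tff3, Nr1h4 and Vdr. Detected in GFPhigh and not in GFPlow was 1, Reg3g, and the share of all genes with this pattern was not computed. Of the 10, Mogat2, Rbp2, Slc27a4 and Tff3 passed in GFPhigh on array 1 and missed the mark on array 2 only. That channel, in Cy5, passed 18.7% of its spots, against 31.7% for GFPlow on the same array. Missing the mark is therefore not the same as a lower ratio. Tff3 had 0.14 and 0.07, and Slc27a4 0.01 and -0.15, while Mogat2, Rbp2, Abcg5 and Nr1h4 had negative ratios on both arrays. Not well above background in any channel were Cdx1, Cdx2, Lct, Mttp, Muc2 and Akp3. Those of these names that were not given before were chosen after their values were seen. How many duodenal cells such readings would still allow, and their part in the values of Fabp2 and Clca3, was not tested.

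The promoters of the genes were searched for the TATA box and for short motifs of the intestinal factor families CDX, GATA, HNF1 and HNF4, in the 300 bases that RefSeq gives for each (250 before to 50 after the start, build GRCm38.p6). Entries were matched for 9 of the 10 genes. Motifs were searched on both strands, and a match is a description of letters only. The TATA box TATAAA stood in the windows of Alpi, Dpp4, Fabp1 and Sis and in 13.62% of all 32851 windows. The CDX core CATAAA, which differs from it in the first letter, stood in those of Agr2, Fabp1 and Sis and in 11.85% of all. The HNF1 half-site GTTAAT stood in those of Fabp1 and Sis and in 7.1% of all.

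The GATA core AGATAA was found in the window of Dpp4 and in 11.18% of all, and the HNF4 site CAAAGTCCA in that of Alpi and in 0.47% of all. Anpep, Fabp2, Apoa1 and Apoa4 held none of these 5 motifs. Printed here are the windows of Fabp1 and Sis, which were not detected and hold CDX and HNF1 letters, and of Anpep, which was bright and holds none. Motif matches are in capitals, and in Sis a pair of TATA matches on opposite strands overlap.
Fabp1, chr6:71199629-71199928, plus strand: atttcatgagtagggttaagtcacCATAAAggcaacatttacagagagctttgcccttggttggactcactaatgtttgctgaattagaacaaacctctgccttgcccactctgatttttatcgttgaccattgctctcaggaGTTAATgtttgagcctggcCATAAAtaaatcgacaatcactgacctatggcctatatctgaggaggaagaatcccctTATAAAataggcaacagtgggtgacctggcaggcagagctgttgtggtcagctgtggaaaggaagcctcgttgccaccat
Sis, chr3:72967814-72968113, minus strand: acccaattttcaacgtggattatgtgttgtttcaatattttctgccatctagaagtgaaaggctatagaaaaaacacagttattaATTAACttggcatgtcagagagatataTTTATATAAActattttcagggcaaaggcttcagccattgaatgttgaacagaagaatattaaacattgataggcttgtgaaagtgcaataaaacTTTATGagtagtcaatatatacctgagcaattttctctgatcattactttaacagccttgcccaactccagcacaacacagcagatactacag
Anpep, chr7:79848161-79848460, minus strand: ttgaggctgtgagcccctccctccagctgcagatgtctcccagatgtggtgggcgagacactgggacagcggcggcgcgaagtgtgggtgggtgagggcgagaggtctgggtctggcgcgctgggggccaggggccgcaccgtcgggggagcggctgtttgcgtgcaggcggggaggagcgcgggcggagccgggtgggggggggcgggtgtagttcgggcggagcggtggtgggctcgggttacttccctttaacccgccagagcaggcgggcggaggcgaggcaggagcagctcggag
The bases G and C made up 72.3% of the window of Anpep, 45.0% of that of Fabp1 and 34.0% of that of Sis.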

How the data were processed

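The authors deposited the scanner output of 2 two-colour Agilent arrays: mean spot intensity and local background intensity per channel, processed intensities and a log10 ratio, whose scale and surrogates come from Feature Extraction 10.5.1.1 per the file headers (9.5.3 per the submitters' processing notes). The deposited p-value of each ratio covers 1 array's technical error and was not used. A deposited value table holds the same log10 ratios turned to GFPhigh over GFPlow (largest difference 0.0050), with column medians of 0.019 and -0.046, and served as an alternative. RNA was isolated with Trizol and amplified linearly per the labels' protocols. The other flags of the deposited files are 0 or 1.

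Background correction of mean signals used normexp with an offset of 50 (limma 3.58.1, R 4.3.3), and ratios were normalized by loess within arrays, control spots at weight 0, leaving out non-uniform and population outlier spots. Spots of a probe were averaged, and a probe was detected where over 50% of its spots were well above background. A gene was taken by its kept probe of highest average signal. For a population that missed this mark on each array, a bound was computed from levels after loess and Aquantile, against the higher of the dim probe's level and the lowest level well above background. Symbols were updated through RefSeq (GRCm38.p6, names only): 25097 of 41174 probes by accession, 166 by another accession, 6233 unchanged, 1603 by an older symbol, and 8075 kept the file's name. The steps were tested on simulated arrays.

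The members and lists were chosen with earlier results of these data known. Named were all 10 genes, Lgr5, up to 4 measured genes with the largest absolute ratios per list, a fixed set of intestinal and gastric genes, and the 3 nearest genes of each counted gene. Both arrays lie on 1 slide and in 1 scan, which leaves no batch to test. The alternatives were background correction, signals, centring, filters, probe rule, threshold and each array alone. The fit without normalization within arrays, counted by each array and by the mean of both, was added after seeing the data.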

Additional observations from a re-analysis of the deposited data

How the results depend on the processing

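No paired analysis was possible because the 2 arrays hold the same pair of RNA samples and no groups share replicate numbers. The 3 genes detected in GFPhigh and the 5 in GFPlow became 4 and 6 with spots significantly above background, and 3 to 4 and 5 with either array alone. Of the 10 genes, 1 was counted as higher in GFPhigh, 2 with processed signals or the value table (Agr2 added), 0 with median centring or without normalization (by each array or by the mean), and 1 to 2 with either array alone. As higher in GFPlow 2 were counted, and 1 without background correction, with median centring, without normalization by the rule of each array, with both populations above background, or at 3-fold, Fabp2 in each case. Agr2 reversed to -0.052 with median centring and -0.14 without normalization. Dpp4 was 0.13 without array 2 and -0.70 without array 1.

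Of the 4 lists 2 genes were counted in GFPhigh, 0 with median centring, spike-in centring or at 3-fold, 0 without normalization by each array and 1 by the mean (Reg3g), 4 at 1.5-fold and 2 to 4 with either array alone. In GFPlow 6 were counted, and 11 with spike-in centring. Over all genes 138 were counted in GFPhigh, 352 with processed signals or the value table, 10 with median centring, 23 with spike-in centring, 5 without normalization by each array and 42 by the mean, 438 at 1.5-fold, 32 at 3-fold and 349 to 371 with either array alone. In GFPlow 211 were counted, 511 with processed signals, 509 with the value table, 1322 with spike-in centring, 187 without normalization by each array and 1765 by the mean, 139 with both populations above background, 587 at 1.5-fold, 72 at 3-fold and 400 to 499 with either array alone. Beyond what each setting's construction fixes (threshold, filter, arrays), the cause was not tested. Of these counts under all settings, 38 moved by over 1.5 times and 66 did not. With 1 RNA sample per population no spread between animals is known, and 5 of the 10 genes lay too near background for a ratio.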
